A study of Bos taurus with 6 samples.

Results

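Myostatin, activin and transforming growth factor beta (TGF-beta) signalling was described from 10 genes chosen by name: the ligand genes MSTN, INHBA, TGFB1, TGFB2 and BMP4, the receptor gene ACVR2B, the genes FST and FSTL1 of secreted binding proteins, and the intracellular genes SMAD3 and SMAD7. The platform annotation gave a probe set with exactly 1 gene symbol to 8 of the 10, of 9155 genes named in that way on the whole array. FSTL1 and SMAD7 were not analysed here. The 8 genes had 10 probe sets, 2 each for MSTN and SMAD3 and 1 for each of the other 6 genes. The data were Affymetrix arrays of total RNA from the longissimus dorsi, a long back muscle, with 1 array per animal. The groups were 3 Japanese Black steers, of a beef breed known for fat within the muscle, and 3 Holstein steers, of a breed kept mainly for milk. All 6 were males on energy-rich feed, so the comparison is of breeds under that feed and not of feeds.

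Ligands of this family are secreted as precursors and held inactive until they are cleaved and released. Myostatin, made by muscle fibres, limits muscle growth, and cattle that lack it have greatly enlarged muscles. Myostatin and activin A, the dimer encoded by INHBA, bind the receptor ACVR2B, whose partner receptor phosphorylates SMAD2 and SMAD3, which then enter the nucleus with SMAD4. TGF-beta ligands reach the same SMADs through TGFBR2, while bone morphogenetic proteins such as BMP4 act mainly through SMAD1 and SMAD5. Follistatin, encoded by FST, binds activin and myostatin and keeps them from the receptor.

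Signals are linear intensity units, and the median of an array lay between 48.5 and 54.7, so that most of these probe sets were dim to moderate. Muscle fibre markers were bright in every animal: their summed signal over 6 genes was 73141 to 79926 in Japanese Black and 77026 to 78722 in Holstein muscle. Adipocyte markers varied widely within both breeds, with a summed signal of 2410, 2574 and 11491 in Japanese Black animals 1 to 3 and of 5724, 9113 and 1468 in Holstein animals 1 to 3. Holstein 3 stood apart in its 9 hybridisation control probe sets, which measure labelled RNA added before hybridisation. Their mean log2 level was 0.45 above the average of the arrays there and between -0.22 and 0.03 in the other 5. The ratio of the 3' to the 5' actin control was 1.11, 1.14 and 1.13 in Japanese Black animals 1 to 3. In Holstein animals 1 to 3 it was 1.07, 1.05 and 1.0, without overlap between the breeds. The same ratio for GAPDH was 0.928, 0.862 and 0.858 against 0.884, 0.819 and 0.796, and overlapped. The part of these ratios in the breed differences was not tested. A muscle sample holds several cell types, and in it fewer cells of a type and less RNA per cell cannot be told apart.

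None of the 9 probe sets that were bright enough to be tested passed the test for a breed difference. Each log2 difference is the Japanese Black mean less the Holstein mean of log2(signal + 16), an offset that shrinks the differences of dim probe sets. The fit was made with limma on 18012 probe sets, with Benjamini-Hochberg adjustment. At an adjusted p under 0.05 the count was 0 of 9, with 0.0167% of all probe sets called. At an unadjusted p under 0.05 it was again 0 of 9, against 12.6% of all probe sets. The unadjusted p lay between 0.18 and 0.857 and the adjusted p between 0.548 and 0.95. Japanese Black values were lower at 7 probe sets and higher at 2. The median difference was -0.17, while 49.0% of all probe sets tested were lower and their median was 0.007. For 7 of the 9 the 95% interval excluded a 2-fold difference in either direction on this scale. The exceptions were TGFB2 and the brighter probe set of MSTN, the pair that varied most between animals of a breed.

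**Figure D1:**
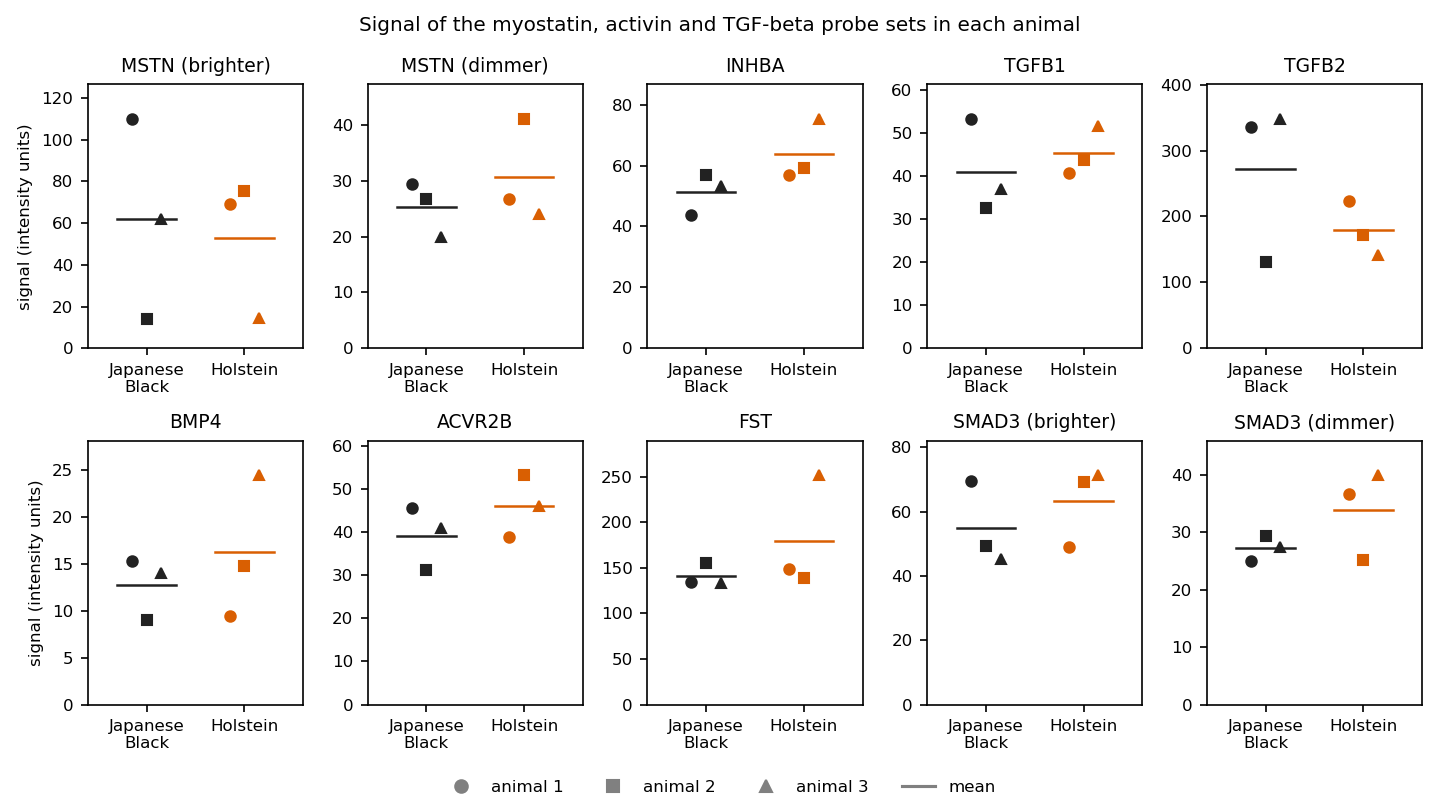
Signal in intensity units on a linear axis from 0 for each of the 10 probe sets. Points are animals 1 to 3 of each breed and horizontal lines are breed means. The breeds are separate only for INHBA, while the brighter MSTN probe set has 1 low animal in each breed.

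MSTN was the most variable of these genes between animals, and its pattern did not follow breed. Its brighter probe set read 110, 13.8 and 62.0 in Japanese Black animals 1 to 3, against 69.1, 75.2 and 14.4 in Holstein animals 1 to 3. Each breed thus had 1 animal far below its other 2, Japanese Black 2 and Holstein 3, and the breeds overlapped fully. The highest signal was 7.92 times the lowest in Japanese Black and 5.21 times in Holstein. The residual SD within breeds was 0.98 on the log2 scale, larger than that of 99.4% of the probe sets tested, whose median was 0.23. Means were 61.8 ± 47.9 in Japanese Black and 52.9 ± 33.5 in Holstein (SD, n = 3 each). The log2 difference was 0.10 (SE 0.55, 95% interval -1.15 to 1.35), with an adjusted p of 0.95 in limma. This interval spans ratios of Japanese Black over Holstein from 0.451 to 2.56, so a breed difference of that size was not detectable with these arrays.

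The dimmer MSTN probe set varied less. It read 29.4, 26.8 and 19.9 in Japanese Black and 26.7, 41.1 and 24.1 in Holstein animals 1 to 3, with the highest value in Holstein 2. Holstein 3 was again the lowest of its breed, while Japanese Black 2 lay between the other animals of its breed. Its log2 difference was -0.16 (SE 0.19, 95% interval -0.58 to 0.26), and -0.01 without Holstein 2. Across the 6 animals the log2 signals of the MSTN probe sets had a Pearson r of 0.33 (exact permutation p 0.55) and a Spearman rho of 0.54 (exact permutation p 0.297). Without Japanese Black 2 and Holstein 3, the animals farthest from the median, r was 0.36. For the paired probe sets of SMAD3, the other relation computed, r was -0.05 (exact permutation p 0.871) and rho 0.03 (exact permutation p 1.0), and without Japanese Black 3 and Holstein 3 r was -0.86. Adjusted over these 2 relations, the exact permutation p was 0.871 for both r values, and 0.594 and 1.0 for rho of MSTN and SMAD3.

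The pattern of the brighter MSTN probe set was set beside that of 8049 other genes by the Pearson r of log2 signals over the 6 arrays, as a description. The most alike were COL27A1 (r 0.988), a fibrillar collagen chain, EPDR1 (0.981), an ependymin-related protein, and POU2AF1 (0.958), a transcriptional coactivator of B cells. EPDR1 read 533, 201 and 338 in Japanese Black and 397, 375 and 221 in Holstein animals 1 to 3. Its low values in Japanese Black 2 and Holstein 3 follow from its choice by r. The size of a change does not enter r, and COL27A1 spanned only 86.4 to 106. The most opposite were STIP1 (-0.98), a co-chaperone that links HSP70 and HSP90, PGS1 (-0.975), an enzyme of cardiolipin synthesis, and DEDD2 (-0.973), a death effector domain protein. STIP1 read 1383, 1924 and 1427 in Japanese Black and 1460, 1434 and 1846 in Holstein animals 1 to 3. In all, 74 genes, or 0.919%, had an r of at least 0.9 in size, 20 positive and 54 negative; over so few arrays such values arise easily when many genes are compared.

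INHBA, which encodes the activin A subunit, was the only one of the 9 probe sets without overlap between the breeds. It read 43.6, 56.9 and 53.2 in Japanese Black animals 1 to 3, against 57.0, 59.2 and 75.3 in Holstein animals 1 to 3. The nearest animals, Japanese Black 2 at 56.9 and Holstein 1 at 57.0, were almost equal, and the breeds overlapped after quantile normalization and after median centring. The breeds did not overlap for 19.8% of all probe sets tested. On the log2 scale the means were 6.07 ± 0.15 in Japanese Black and 6.31 ± 0.18 in Holstein (SD, n = 3 each), a difference of -0.25 (SE 0.17, 95% interval -0.63 to 0.14). Its unadjusted p of 0.18 in limma was the smallest of the 9 and its adjusted p was 0.548.

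TGFB2, which encodes a TGF-beta isoform, had the largest difference of these genes and the second widest spread. Signals were 336, 131 and 348 in Japanese Black animals 1 to 3, and 224, 172 and 141 in Holstein animals 1 to 3. Japanese Black 1 and 3 lay above all Holstein animals and Japanese Black 2 below all of them. Means were 272 ± 122 in Japanese Black and 179 ± 42.2 in Holstein (SD, n = 3 each). The log2 difference was 0.47 (SE 0.35, 95% interval -0.31 to 1.25) or 1.38-fold on that scale, and its adjusted p in limma was 0.573. The residual SD of 0.57 was larger than that of 96.0% of the probe sets tested. Without Japanese Black 2 the difference was 0.90, with an unadjusted p of 0.00407 in limma that did not pass after adjustment. In that fit 8.17% of all genes, at 1 probe set per gene, had an unadjusted p under 0.05. Without Japanese Black 3 the TGFB2 difference was 0.24. Markers of smooth muscle cells and pericytes also varied between these animals, with mean log2 levels relative to all arrays of -0.47, -0.68 and 0.87 in Japanese Black and -0.18, 0.58 and -0.13 in Holstein animals 1 to 3. Both the markers and TGFB2 were lowest in Japanese Black 2 and highest in Japanese Black 3. The same held for leukocyte markers, at -0.24 and 0.27, and for muscle fibre markers, at -0.09 and 0.06. In Japanese Black 1 the smooth muscle markers were below average with TGFB2 at 336, and in Holstein 2 they were above average with TGFB2 at 172. Of these 6 markers 3 were higher and 3 lower in Japanese Black, their summed signal was 3898 to 12414 in Japanese Black and 4626 to 8926 in Holstein, and 0 were at 0; their part in the TGFB2 signal was not tested.

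TGFB1, the isoform best known for driving matrix production, was close to equal in the breeds. It read 53.2, 32.5 and 37.0 in Japanese Black and 40.7, 43.6 and 51.5 in Holstein animals 1 to 3. The Holstein animals all lay within the range of the Japanese Black ones. The log2 difference was -0.12 (SE 0.18, 95% interval -0.53 to 0.29). BMP4 was the dimmest of the 10 probe sets and was removed by the filter on low values, as its mean log2 was under the limit of 5.02. It read 15.3, 9.03 and 14.1 in Japanese Black and 9.46, 14.8 and 24.5 in Holstein animals 1 to 3, so that breeds overlapped and the highest value came from Holstein 3. In a fit without the filter the log2 difference of BMP4 was -0.15 (SE 0.20), with an adjusted p of 0.814 in limma.

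The receptor gene ACVR2B also overlapped between the breeds. It read 45.5, 31.1 and 41.0 in Japanese Black and 38.8, 53.2 and 46.0 in Holstein animals 1 to 3. Japanese Black 2 was lowest and Holstein 2 highest. The log2 difference was -0.17 (SE 0.17, 95% interval -0.56 to 0.22).

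FST, which encodes the inhibitor follistatin, was alike in 5 animals and high in 1. Its signals were 135, 155 and 134 in Japanese Black and 149, 139 and 252 in Holstein animals 1 to 3. Only Holstein 3 lay outside the range of 134 to 155. Means were 141 ± 12.1 in Japanese Black and 180 ± 62.2 in Holstein (SD, n = 3 each), a log2 difference of -0.28 (SE 0.23, 95% interval -0.79 to 0.24). It was -0.03 without Holstein 3.

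SMAD3, the intracellular mediator of myostatin, activin and TGF-beta signals, had small differences at both of its probe sets. The brighter probe set read 69.5, 49.4 and 45.3 in Japanese Black and 49.0, 69.3 and 71.3 in Holstein animals 1 to 3. The dimmer one read 25.01, 29.4 and 27.4 in Japanese Black and 36.6, 25.2 and 39.9 in Holstein animals 1 to 3. Both overlapped between the breeds and both were highest in Holstein 3. Their log2 differences were -0.17 (SE 0.20) and -0.20 (SE 0.17), with adjusted p of 0.732 and 0.63 in limma.

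**Figure D2:**
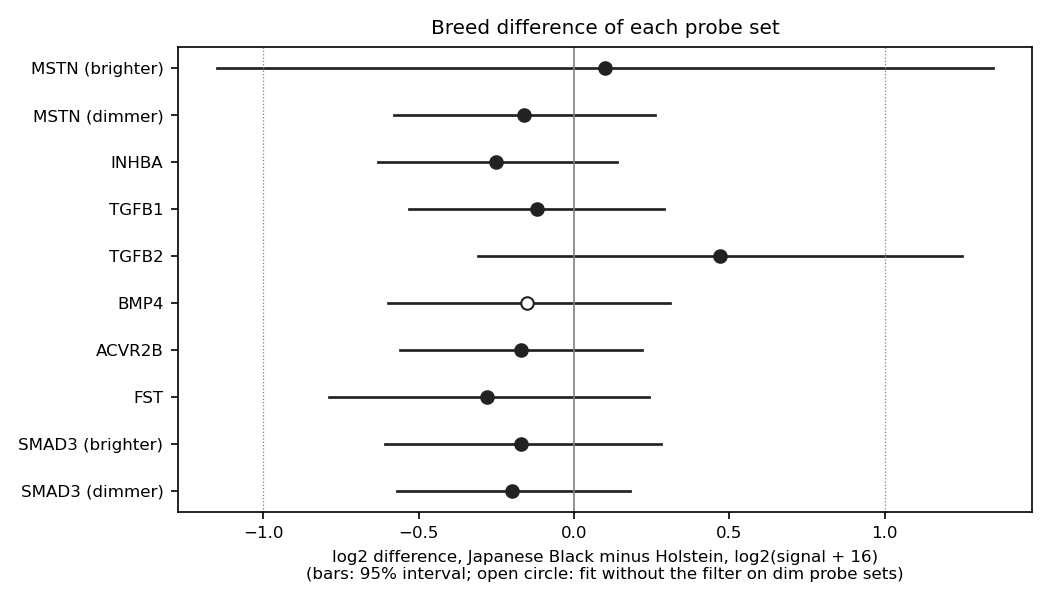
Log2 difference, Japanese Black minus Holstein, of each probe set with its 95% interval from limma, with dotted lines at a 2-fold difference. All 10 intervals include 0, and those of TGFB2 and the brighter MSTN probe set are the widest.

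The highest value of a probe set fell in Holstein 3 for 5 of the 10: BMP4, FST, INHBA and both of SMAD3. Among the 9 tested this was 4, where Holstein 3 was highest for 24.3% of all probe sets tested. The lowest value fell in a Japanese Black animal for all 10, and Japanese Black 2 held it for 5, or 4 of the 9 tested. Over all probe sets tested the lowest value fell in a Japanese Black animal for 49.2% and in Japanese Black 2 for 17.3%. The hybridisation controls were also highest in Holstein 3, and their part in these values was not tested. Without Holstein 3, Japanese Black values were lower at 8 of the 9 tested probe sets and the median difference was -0.11. With array weights it was again 8 of the 9, because the brighter MSTN probe set changed sign.

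**Figure D3:**
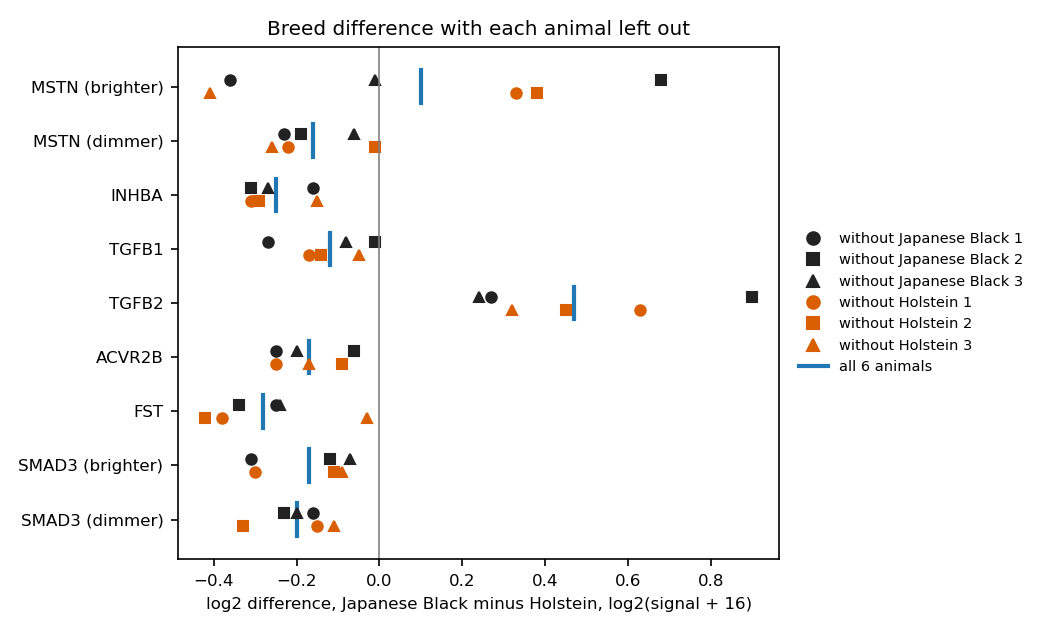
Log2 difference, Japanese Black minus Holstein, of the 9 tested probe sets with all 6 animals (vertical bars) and with each animal left out in turn (points). The brighter MSTN probe set moves between -0.41 and 0.68 and TGFB2 between 0.24 and 0.90.

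The wider pathway was described from a list of 97 gene symbols in 6 roles, the 10 genes above included, with 1 probe set per gene, that of the highest mean. Of these, 59 were annotated and 52 were bright enough to be tested. At an adjusted p under 0.05 the count was 0 of 52, with 0.0248% of all 8050 genes called. At an unadjusted p under 0.05, 8 of the 52 were found, 2 higher and 6 lower in Japanese Black, where 11.3% of all genes were called, 5.84% higher and 5.42% lower. The median log2 difference of the list was -0.11 and that of all genes -0.009. The 8 were ACVR1, PPM1A, ACVRL1, SMAD5, ID1, ID3, BMPER and TGIF1, and 0 of the first 10 genes were among them. None of them passed the adjusted threshold, so the values that follow are descriptions. The breeds did not overlap for 11 of the 52 genes, and for 19.8% of all probe sets tested.

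**Figure D4:**
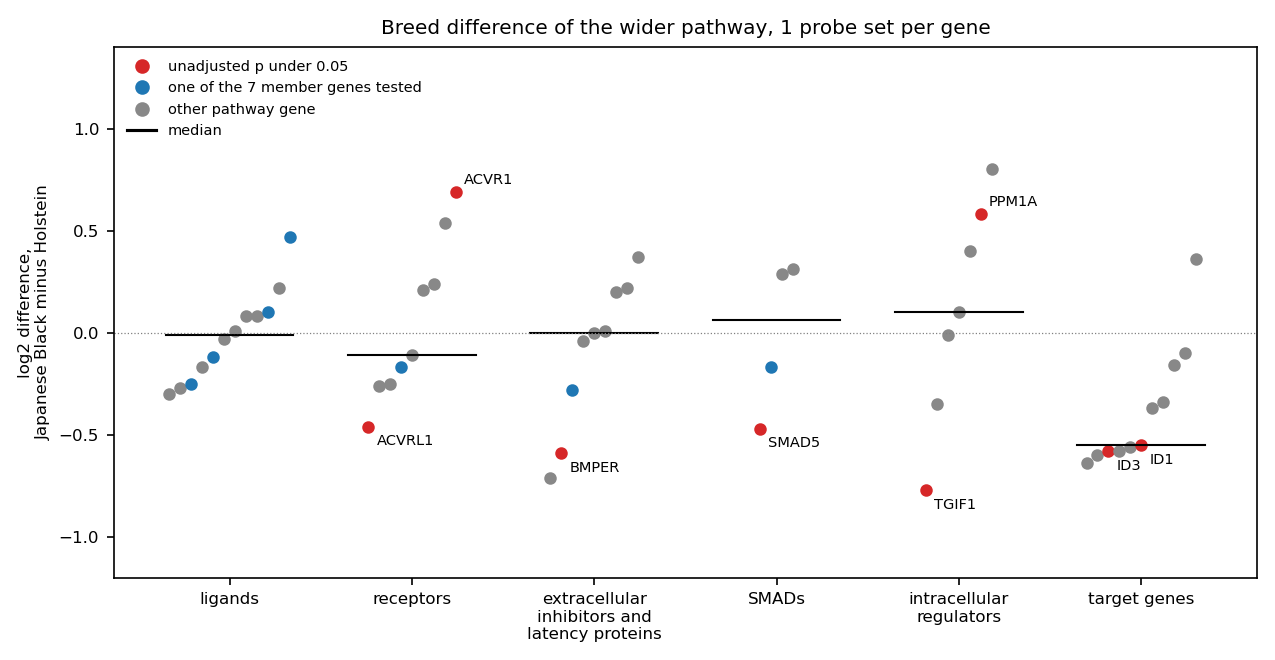
Log2 difference, Japanese Black minus Holstein, of 52 pathway genes by role, 1 point per gene. Horizontal bars are medians, red points, which are named, have an unadjusted p under 0.05, and blue points are the 7 genes tested of the first 10. Of the target genes 10 of 11 lie below 0, with a median of -0.55, while the ligands centre on -0.01.

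Ligand genes were evenly split. Japanese Black values were higher for 6 of the 12 tested and lower for 6. The median was -0.01, and 0 had an unadjusted p under 0.05. Besides the genes above, those with the smallest p were GDF6 (-0.27), a growth and differentiation factor, BMP15 (-0.30), known as an oocyte factor, INHA (-0.17), the inhibin alpha subunit, and TGFB3 (0.22). INHA and TGFB3 had no settled direction: over the 16 settings INHA lay between -0.40 and 0.06 and TGFB3 between -0.19 and 0.46. The second probe set of BMP15 had a difference of 0.09. TGFB3 read 46.4, 39.2 and 120 in Japanese Black and 32.2, 72.3 and 54.0 in Holstein animals 1 to 3, highest in Japanese Black 3. The smooth muscle markers were also highest there, as were the adipocyte, leukocyte and, narrowly, the muscle fibre markers. TGFB3 was lowest in Holstein 1, while the smooth muscle markers were lowest in Japanese Black 2. The part of these cell types in the TGFB3 signal was not tested.

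Among 9 receptor genes tested, 4 were higher and 5 lower in Japanese Black. ACVR1, a type I receptor for bone morphogenetic proteins and activins, read 775, 740 and 972 in Japanese Black, against 562, 450 and 502 in Holstein animals 1 to 3. Every Japanese Black animal lay above every Holstein animal. Its log2 difference was 0.69 (SE 0.17), with an unadjusted p of 0.00277 and an adjusted p of 0.287 in limma, and 0.44 at its dimmer probe set. It stayed between 0.58 and 0.77 in all 16 settings run, of which other filters and variance models could not move it.

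ACVRL1, a type I receptor found mainly on endothelial cells, was on the other side. It read 151, 160 and 143 in Japanese Black and 214, 203 and 224 in Holstein animals 1 to 3, without overlap. Its log2 difference was -0.46 (SE 0.15), with an adjusted p of 0.336 in limma. Of 6 endothelial markers 5 were lower and 1 was higher in Japanese Black. They had a summed signal of 1406 to 1961 in Japanese Black and 1714 to 2002 in Holstein muscle, and 0 of them were at 0; their part in the ACVRL1 values was not tested. BMPR1A (0.54) and TGFBR2 (-0.26) had the next smallest p.

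Of 9 genes listed as extracellular inhibitors and latency proteins, 5 were higher and 4 lower in Japanese Black. The 5 include FSTL3, at 0.0, and TCAP, at 0.01, which encodes a protein inside the muscle fibre. BMPER, a secreted protein that binds bone morphogenetic proteins, read 47.9, 42.7 and 35.8 in Japanese Black and 67.1, 74.8 and 72.6 in Holstein animals 1 to 3, without overlap. Its log2 difference was -0.59 (SE 0.16), with an unadjusted p of 0.00435 and an adjusted p of 0.3 in limma. The dimmer BMPER probe set had a difference of -0.41. THBS1, a thrombospondin, which can release TGF-beta from its latent form, had a difference of -0.71 (SE 0.39), and its 5 other probe sets lay between -0.58 and 0.38. LTBP1, a latent TGF-beta binding protein, had 0.37, and decorin (DCN), a matrix proteoglycan that binds TGF-beta and myostatin, had 0.22.

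SMADs and intracellular regulators were mixed in direction, with 2 of 4 SMAD genes and 4 of 7 regulators higher in Japanese Black. SMAD2, the partner of SMAD3, read 299, 317 and 368 in Japanese Black and 261, 268 and 252 in Holstein animals 1 to 3, without overlap, a log2 difference of 0.31 (SE 0.16). SMAD4, the common partner, had 0.29 (SE 0.16). SMAD5, of the bone morphogenetic protein branch, read 48.0, 47.4 and 39.7 in Japanese Black and 64.9, 68.4 and 71.4 in Holstein animals 1 to 3. The SMAD5 difference was -0.47 (SE 0.15) with an adjusted p of 0.33 in limma, and -0.02 at its dimmer probe set, so the SMAD5 probe sets disagreed.

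PPM1A, a phosphatase that acts on SMAD2 and SMAD3, read 2085, 2415 and 2688 in Japanese Black and 1612, 1886 and 1307 in Holstein animals 1 to 3. All Japanese Black animals lay above the Holstein ones, with a log2 difference of 0.58 (SE 0.17) and an adjusted p of 0.313 in limma. TGIF1, a corepressor of SMAD target genes, had -0.77 (SE 0.31) at its brighter probe set, which overlapped between the breeds. Without Japanese Black 1 the unadjusted p of that probe set in limma was 0.143. The dimmer TGIF1 probe set had -1.19, with an adjusted p of 0.287 in limma, and did not overlap. It read 11.9, 9.11 and 0.98 in Japanese Black and 16.9, 48.5 and 50.1 in Holstein animals 1 to 3, so its Japanese Black values were very dim. PMEPA1, a membrane protein that holds back SMAD2 and SMAD3, had -0.35, and USP15, a deubiquitinase of the TGF-beta receptor, had 0.40 at its brighter and 0.07 at its dimmer probe set.

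Target genes had the most uniform direction of the 6 roles. Japanese Black values were lower for 10 of the 11 tested and higher for 1. The median was -0.55, while the median of all genes was -0.009, and 51.3% of all genes were lower. The list was chosen with earlier results of these data known, and its genes were measured in the same animals. The count is therefore a description, and its genes are not independent observations of a breed difference. At an unadjusted p under 0.05 there were 2, both lower. Over the 16 settings the median lay between -0.63 and -0.36, with 9 to 11 of 11 lower, or 11 of 13 without the filter on dim probe sets. With the probe set of the largest spread per gene in place of the brightest, 9 of 11 were lower with a median of -0.55, and 2 had an unadjusted p under 0.05 on the lower side and 1 on the higher. The number lower at an unadjusted p under 0.05 moved with the setting. It was 7 of 11 without Japanese Black 3, where 7.35% of all genes were called lower, and 4 without Holstein 2, where 6.26% were. It was 1 without Holstein 3, with 2.89% of all genes, and 1 without moderation of the variance, with 4.76%. Array weights gave 6, with 6.40% of all genes, quantile normalization 5, with 6.58%, and median centring 3, with 4.86%.

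ID1 and ID3, inhibitors of differentiation that respond to bone morphogenetic proteins, were the 2. ID1 read 1481, 1426 and 1482 in Japanese Black and 1620, 2363 and 2576 in Holstein animals 1 to 3. ID3 read 490, 484 and 668 in Japanese Black and 760, 783 and 918 in Holstein animals 1 to 3. Neither gene overlapped between the breeds. Their log2 differences were -0.55 (SE 0.18) and -0.58 (SE 0.18), with adjusted p of 0.336 and 0.321 in limma.

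Matrix genes that TGF-beta is known to raise lay on the same side but overlapped between the breeds. COL3A1, a collagen chain, read 2079, 1551 and 3813 in Japanese Black and 4013, 4002 and 2942 in Holstein animals 1 to 3, a log2 difference of -0.64 (SE 0.29). COL1A2 had -0.58, and the remaining target genes were named after their values were seen. COL1A1 had -0.34, fibronectin (FN1) had -0.60, TGFBI had -0.56 and CCN2, connective tissue growth factor, had -0.37. At the dimmer probe sets bright enough to be tested, the difference was -0.23 for COL3A1, -0.08 for FN1 and -0.69 for COL1A2. ID2, an inhibitor of differentiation like ID1, had -0.10 at its brighter probe set and 0.94 at its dimmer one, so its probe sets were on opposite sides. CDKN1A, a cell cycle inhibitor, was the 1 target gene higher in Japanese Black, at 0.36 (SE 0.53). CDKN1A lay between -0.17 and 0.86 over the 16 settings, ID2 between -0.33 and 0.08, and JUNB, a transcription factor subunit with -0.16, between -0.41 and 0.24. Fibroblast markers, of which COL1A1, COL1A2 and COL3A1 are 3 of 6, had 5 lower and 1 higher in Japanese Black. Their summed signal was 6623 to 11613 in Japanese Black and 8718 to 9997 in Holstein muscle and 0 were at 0, and their part in the target genes was not tested.

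**Figure D5:**
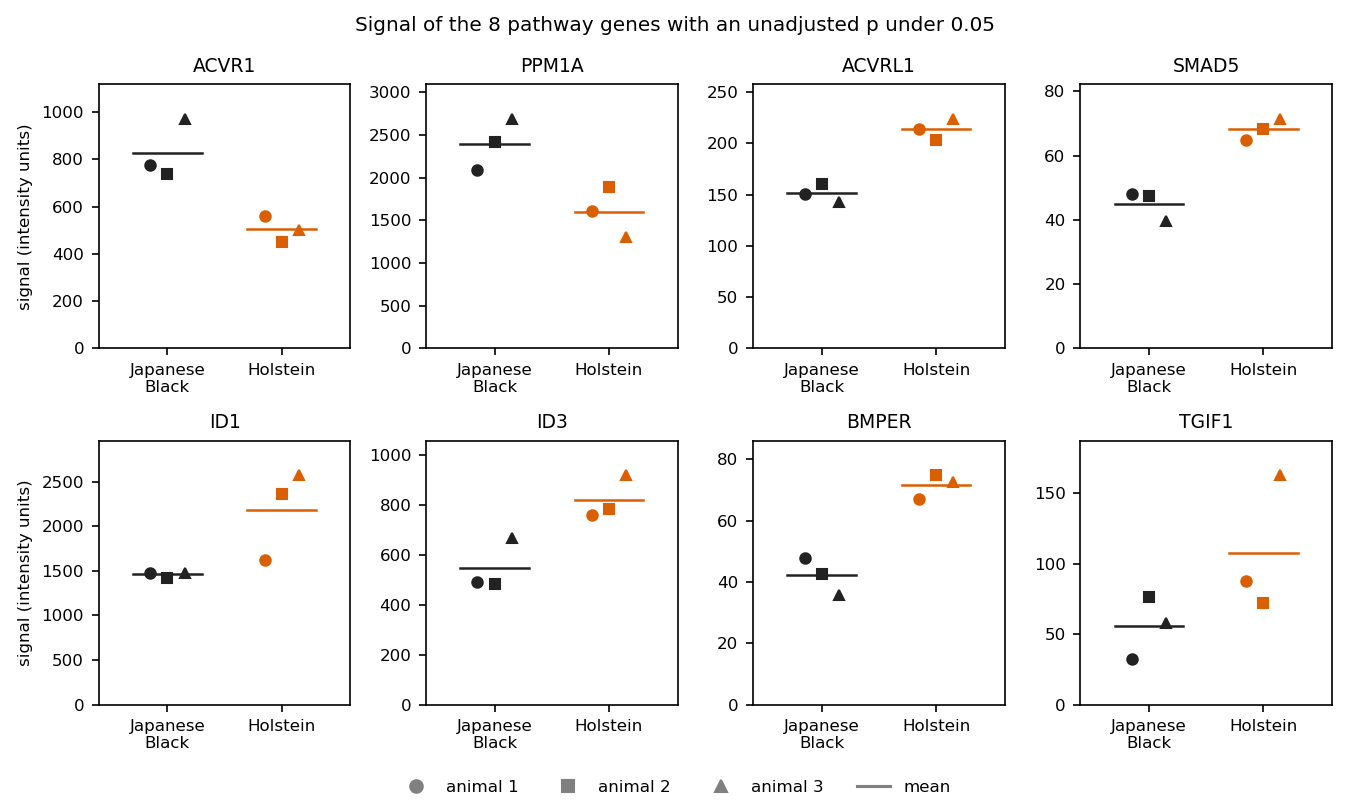
Signal in intensity units on a linear axis from 0 of the 8 pathway genes with an unadjusted p under 0.05. Points are animals 1 to 3 of each breed and lines are breed means. ACVR1 and PPM1A are higher in all Japanese Black animals, 5 genes are lower in all of them, and TGIF1 overlaps at the probe set shown. Genes picked for a small p tend not to overlap. Of all 52 pathway genes tested 11 do not overlap, and 19.8% of all probe sets tested, not limited to 1 per gene, do not.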

How the data were processed

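The table deposited by the authors holds a linear intensity for each of 24128 probe sets on each array. The submitters' processing notes name Affymetrix Expression Console 1.1 and GCOS 1.1.1. How probes were summarised and scaled is not given in the sources used here. Control probe sets (112) were left out, 16 was added to each deposited intensity, log2 was taken, and the dimmest 25% by mean log2 were dropped, leaving 18012. Breeds were compared without pairing in limma 3.58.1 in R 4.3.3 (lmFit, eBayes with an intensity trend, two-sided, Benjamini-Hochberg over all probe sets, 4.91 prior degrees of freedom). Replicate numbers only name animals. The few arrays limit precision. Symbols came from the platform annotation; coordinates and sequences were not used here.

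Every member probe set was named. In each role of the wider list, up to 4 further genes with the smallest p were named, and the 3 genes most and least like MSTN. The other target genes tested were named as well, after their values were seen. Other receptors and regulators were counted. Members and lists were chosen with earlier results of these data known. On simulated data for Japanese Black minus Holstein over 18012 probe sets, limma recovered 44.4% of changes of 1 on the log2 scale and 90.4% of changes of 2. Alternatives were other offsets, filters, scalings, variance models, array weights, another probe set per gene and each animal left out. Figures used matplotlib 3.10.9.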

Additional observations from a re-analysis of the deposited data

How the results depend on the processing

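The count of member probe sets past an adjusted p of 0.05 was 0 in all 16 settings. Of 130 alternative values of single probe sets 126 kept their direction. The other 4 were of the brighter MSTN probe set, which was -0.31 with array weights and ranged between -0.41 and 0.68 with 1 animal left out. The 126 include fits that could not change a direction. Other filters, the fit without an intensity trend and the plain t-test leave each difference as it was. Some values kept their direction only narrowly, such as TGFB1 at -0.01 without Japanese Black 2. BMP4 passed no filter, so it has only the unfiltered value. The count at an unadjusted p under 0.05 was 0 to 1 with 1 animal left out, the 1 being TGFB2 without Japanese Black 2. In that fit 8.17% of all genes, at 1 probe set per gene, were called. The number of member probe sets without overlap was 0 after quantile normalization and 0 after median centring, against 1. With 1 animal left out it was 1 to 3: 2 without Japanese Black 1, Holstein 1 or Holstein 2, and 3 without Japanese Black 2. Breeds with fewer animals separate more easily, and the share of all probe sets without overlap was not computed for these alternatives. The rise in this count therefore says nothing particular about the members. For pathway genes at an unadjusted p under 0.05, 8 with all animals, it was 6 to 14 with 1 animal left out, with 14 of 52 without Japanese Black 3, where 11.0% of all genes were called, 13 without Holstein 2, where 13.6% were, and 6 without Holstein 3, where 6.77% were. It was 7 to 12 in the other alternatives, with 7 in the plain t-test (9.76% of all genes), 10 with the probe set of the largest spread per gene (12.9%) and 12 with array weights (11.8%). The cause was not tested. Among the named pathway genes INHA, TGFB3, ID2, JUNB and CDKN1A changed sign in at least 1 setting. No paired analysis was possible because no label ties an animal of one breed to one of the other, although the series names a paired t-test. Small differences lay beyond what 3 animals per breed can show: on simulated data for Japanese Black minus Holstein over 18012 probe sets, limma recovered 3.6% of changes of 0.5 on the log2 scale.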
